A study of Homo sapiens with 24 samples.

Results

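The enzymes that build purine and pyrimidine nucleotides from small precursors were followed by RNA sequencing in BT549, a line of human breast cancer cells of the triple negative kind. The genes were 10 named enzymes, taken by symbol: PPAT, GART, PFAS, PAICS, ADSL, ATIC and IMPDH2 of purine synthesis, and CAD, UMPS and CTPS1 of pyrimidine synthesis. All 10 were present in each of the 3 deposited tables, which held 15665, 17796 and 10048 genes, and all 10 were tested in every comparison. The genes were named by symbol, without a threshold on any value, but with earlier results of these data known.

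Cells assemble the purine ring step by step on a ribose phosphate, starting from phosphoribosyl pyrophosphate (PRPP), until inosine monophosphate (IMP) is formed, and IMP is then turned into adenine or guanine nucleotides. The pyrimidine ring is built first and joined to PRPP afterwards, which gives uridine monophosphate and, from it, the cytidine nucleotides. Dividing cells rely on both routes for RNA, DNA and cofactors. MYC, a transcription factor of cell growth, binds the sequence CACGTG (the E-box) in complex with MAX, and many nucleotide synthesis genes are known as its targets.

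The 24 libraries fell into 8 groups of 3, all from BT549 cells with a wild type genotype label, grown in RPMI with serum. In the knockdown experiment a pool of siRNAs against MYC was given for 72 h (siMYC), beside a control labelled siCtl. In the inhibitor experiment the groups were vehicle (VEH), KJ-PYR-9 at 40 µM for 3 h, a treatment labelled DEX whose dose and time are not given, and KJ-PYR-9+DEX. KJ-PYR-9 is a small molecule that interferes with the pairing of MYC and MAX, and the labels give DMSO as its solvent. In the third experiment cells received MB-3 at 100 µM for 3 h (MB3), which inhibits GCN5, a histone acetyltransferase encoded by KAT2A, beside a further vehicle group, VEH2. Library MB3 1 carries MED3 in its title and MB3 in its treatment field, and was taken as MB3. The labels call the libraries of a group biological replicates without saying whether they came from separate cultures, and p-values measure only the spread between these libraries.

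PPAT and PAICS, which encode the entry enzyme and a later enzyme of purine synthesis, stand head to head on chromosome 4. PPAT runs on the minus strand from 56393362 to 56435615 (GRCh38) and PAICS on the plus strand from 56435741 to 56464579, so 125 bases lie between them. That stretch is shown because the annotated genes begin on either side of it, in opposite directions, and because their levels are compared throughout. RefSeq lists PAICS starts at 56435752, 56436260 and 56410507. None of these lies in the stretch, and the last lies inside PPAT. The stretch is RefSeq sequence (GRCh38.p14), chr4:56435616-56435740, plus strand, with the GC box GGGCGG in capitals.
PPAT to PAICS: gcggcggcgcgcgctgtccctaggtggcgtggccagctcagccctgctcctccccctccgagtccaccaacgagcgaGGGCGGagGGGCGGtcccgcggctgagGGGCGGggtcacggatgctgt

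The RefSeq table of promoter windows, each 300 bases long from 250 before to 50 after an annotated start, held 13 windows for 8 of the 10 genes (all but ADSL and IMPDH2). Of these 8 genes, 3 had a CACGTG E-box in a window, and PPAT and PAICS had it at the same place, since their windows overlap. ATIC, the enzyme of the last steps to IMP, had 2. The 3 sites are shown because this is the sequence MYC and MAX recognise, each with 12 bases on either side and the E-box in capitals. The ATIC sites lie at chr2:215312001-215312030 and chr2:215312076-215312105, plus strand, 46 bases before and 29 after the annotated start. The PPAT and PAICS site lies at chr4:56435780-56435809 and is read on the minus strand, 182 bases before the start of PPAT and inside the first transcribed bases of PAICS.
ATIC, before the start: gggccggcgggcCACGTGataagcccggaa
ATIC, after the start: ctcctacctgcgCACGTGgtgccgccgctg
PPAT: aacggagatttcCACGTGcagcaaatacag
Both strands were searched. Among all 35116 promoter windows, 7.26% held CACGTG, 45% held the GC box GGGCGG and 34.6% held CCAAT, so a GC box is common in windows of this length. The windows of GART, PFAS, CAD, UMPS and CTPS1 did not hold the letters CACGTG. Sequence outside the windows, such as that farther than 50 bases after a start, was not searched, so these genes may hold the letters there. The shares count single windows, while some of the genes had several. A match is a description of the letters, and no binding was measured.

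Levels are normalized read counts, that is, reads divided by a factor per library, and the 3 tables were normalized separately. Knockdown libraries held 18.77 to 24.15 M recovered reads, those of the inhibitor experiment 5.58 to 30.76 M and those with MB-3 or VEH2 8.31 to 19.96 M. Features without a gene symbol held 26.04% of the reads of DEX 1 and 8.722% of KJ-PYR-9+DEX 3. They held 5.445% in KJ-PYR-9 3, 4.826% in KJ-PYR-9+DEX 1 and 3.098% in KJ-PYR-9 1, and 1.618% to 2.424% in the other libraries of that experiment. Results were also computed without DEX 1 and KJ-PYR-9+DEX 3 together, and without each library in turn. MYC read 2240 (SD 91.2, n = 3) in siCtl and 1718 (SD 67.2) in siMYC, a log2 fold change of -0.38 with a limma adjusted p of 0.0587, while edgeR gave 0.0175. In the inhibitor experiment MYC read 1806 (SD 598) in VEH, 9853 (SD 1408) in KJ-PYR-9, 18424 (SD 1364) in DEX and 4160 (SD 440) in KJ-PYR-9+DEX. KJ-PYR-9 acts on the protein, so its transcript is no check of that label. KAT2A did not pass the test with MB-3 (-0.20, adjusted p = 0.526), and as MB-3 acts on the enzyme this checks no label either. The mesenchymal genes VIM, FN1, CDH2 and EGFR were present in all groups, while ESR1, EPCAM, CD3E and HBB were not listed in any table. PGR stayed at or below 20.9 and PTPRC at or below 39.2 in every library where listed. ERBB2 read 559 to 2100 and was not near 0. The leukocyte markers PTPRC, CD14 and CD68 had group means of at most 42.4.

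Compared per kilobase of annotated exons, IMPDH2 was the highest and ADSL the lowest of the 10 genes in each control group. This order depends on the annotated exon length, which may differ from the length of the transcripts present in these cells. By mean normalized count in siCtl, PAICS (4772.9) and PFAS (3724.5) stood above IMPDH2 (3477.5), while ADSL (581) was again the lowest. PAICS stood above IMPDH2 by count in VEH (2162.4 against 1963.1) and VEH2 (3287.3 against 2704.3) as well. In siCtl the mean level per kilobase was 1254 (SD 105, n = 3) for IMPDH2, 635 (SD 70.7) for PAICS, 576 (SD 55.9) for PFAS and 424 (SD 11.2) for GART. ATIC at 321 (SD 23.6), CTPS1 at 299 (SD 26.1) and CAD at 298 (SD 16.1) followed, and PPAT at 184 (SD 22.7), UMPS at 113 (SD 11.1) and ADSL at 81.7 (SD 4.31) were lowest. The ranges of PAICS and PFAS overlapped, as did those of ATIC, CTPS1 and CAD, so their order within siCtl is not separated. PPAT, which catalyses the committed step of purine synthesis, therefore had a lower level per kilobase than GART, PFAS, PAICS and ATIC. By count in siCtl PPAT (1000.6) was also below each of them, of which ATIC (1260.1) was the nearest. In VEH, the control of the inhibitor experiment, IMPDH2 stood at 708 (SD 95.7) per kilobase, PFAS at 349 (SD 65.3), PAICS at 288 (SD 42.6) and ADSL at 31.8 (SD 3.71). In VEH2 these 4 genes stood at 975 (SD 4.9), 332 (SD 8.05), 437 (SD 8.33) and 36.9 (SD 2.15). Recovered reads per library ranged from 74 to 732 for ADSL and from 671 to 5850 for IMPDH2, so ADSL carries the most counting error of the 10.

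**Figure D1:**
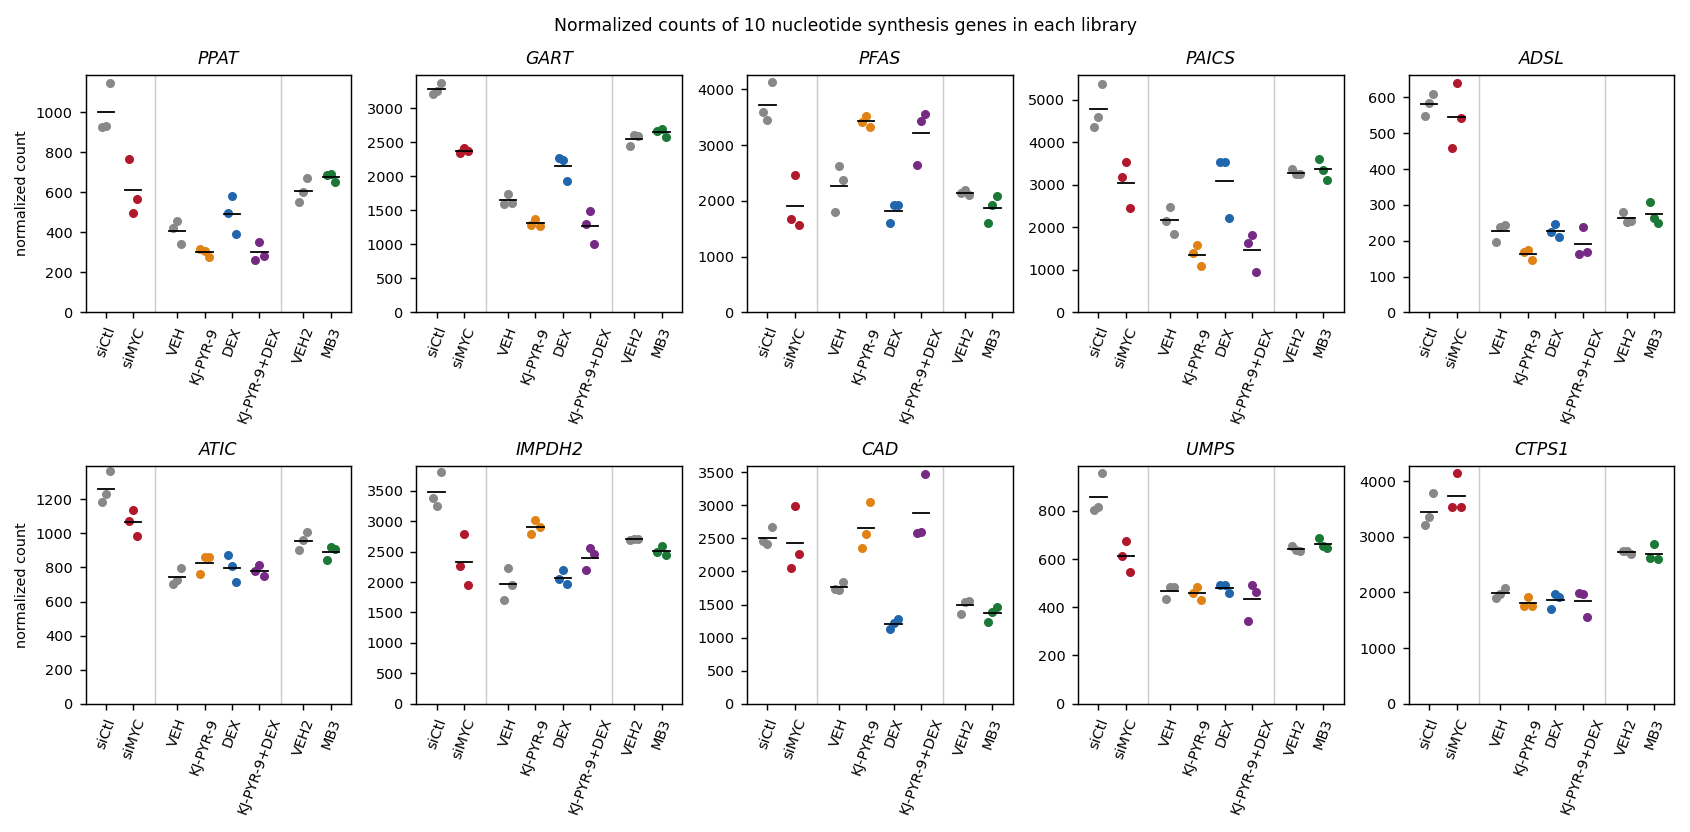
Normalized read count (vertical axis, from 0) of each of the 10 genes in each of the 24 libraries, by group; points are libraries, horizontal lines group means, and vertical lines separate the 3 experiments, which were normalized separately. PFAS, PAICS, PPAT and GART lie lower in the 3 siMYC than in the 3 siCtl libraries, and PFAS, IMPDH2 and CAD lie higher in the 3 KJ-PYR-9 than in the 3 VEH libraries.

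The knockdown asked how these genes read after MYC was targeted with siRNAs. Of the 10 genes, 4 fell and none rose, and the 4 were all of purine synthesis: PFAS, PPAT, PAICS and GART. Among the 14788 genes tested with limma, 4.78% were called lower and 11.4% higher. The fold change was below 0 for 9 of the 10, with a median of -0.477 on the log2 scale beside 0.0481 over all tested genes. The epithelial gene CDH1 rose in the same libraries, from 90.0 (SD 25.7, n = 3) to 377 (SD 131), and the macrophage gene CD68 from 12.2 (SD 6.85) to 39.1 (SD 13.4), while EPCAM and CD3E were not listed. The part of these markers in the values of the 10 enzymes was not tested. In bulk RNA, fewer cells that carry a transcript and less of it per cell cannot be told apart.

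PPAT, the amidotransferase that commits PRPP to purine synthesis, read 928, 931 and 1143 in siCtl and 765, 496 and 567 in siMYC. Every siMYC library was below every siCtl library, and siMYC 1 was the nearest to the controls. The log2 fold change was -0.73 (SE 0.19, limma adjusted p = 0.0472). GART (chromosome 21, 33503931 to 33543491, minus strand), a single protein that carries several early steps of the ring, read 3215, 3256 and 3381 in siCtl and 2346, 2418 and 2369 in siMYC. These were the most even groups of the 4 genes, with no overlap. GART fell by 0.47 on the log2 scale (SE 0.11, adjusted p = 0.033).

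PFAS (chromosome 17, 8247618 to 8270491, plus strand) brings in a nitrogen from glutamine midway through the ring. It read 3584, 3455 and 4135 in siCtl and 1683, 2456 and 1568 in siMYC. The groups did not overlap, and siMYC 2 was the highest of the treated libraries. Its fall of 0.99 on the log2 scale (SE 0.20, adjusted p = 0.0245) was the largest of the 10 genes. PAICS, which adds carbon dioxide and aspartate to the ring, read 4349, 4600 and 5369 in siCtl and 3182, 3524 and 2444 in siMYC. Again no siMYC library reached a siCtl library, and the log2 fold change was -0.66 (SE 0.17, adjusted p = 0.0485).

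IMPDH2 and UMPS missed the threshold by little. IMPDH2 (chromosome 3, 49024325 to 49029408, minus strand), the rate limiting enzyme of the guanine branch, read 3381, 3246 and 3805 in siCtl and 2269, 2789 and 1947 in siMYC, with a log2 fold change of -0.59 (SE 0.16, adjusted p = 0.0549). UMPS (chromosome 3, 124730366 to 124749273, plus strand), which completes uridine monophosphate, read 805, 814 and 956 in siCtl and 613, 676 and 546 in siMYC (-0.49, SE 0.14, adjusted p = 0.0568). The groups of both genes did not overlap. edgeR, with 19.8% of genes called, and DESeq2, with 25.6%, both called 6 of the 10: the same 4 with IMPDH2 and UMPS. With TMM and quantile scaling in limma the adjusted p was 0.036 and 0.0345 for IMPDH2 and 0.0354 and 0.0462 for UMPS.

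The other genes gave smaller values. ATIC (chromosome 2, 215311817 to 215349773, plus strand) averaged 1260 (SD 92.7, n = 3) in siCtl and 1066 (SD 74.5) in siMYC without overlap, a log2 fold change of -0.24 with an adjusted p of 0.199 and a 95% interval of -0.53 to 0.05. ADSL (chromosome 22, 40346500 to 40390463, plus strand), which removes fumarate on the way to IMP and again in the adenine branch, gave -0.10 (adjusted p = 0.668, interval -0.46 to 0.26). CAD (chromosome 2, 27217390 to 27243943, plus strand), the multifunctional enzyme that starts pyrimidine synthesis, read 2457, 2412 and 2666 in siCtl and 2045, 2985 and 2270 in siMYC. The siMYC libraries of CAD lay on both sides of the controls (-0.06, adjusted p = 0.808, interval -0.46 to 0.33). CTPS1 (chromosome 1, 40979335 to 41012565, plus strand), which makes CTP from UTP, gave 0.12 (adjusted p = 0.553, interval -0.20 to 0.43) and was the only 1 of the 10 above 0.

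Leaving out 1 library changed these calls. limma called 0 of the 10 without siCtl 1, siCtl 2, siCtl 3 or siMYC 3, while the same 6 genes kept an unadjusted p under 0.05 each time, and over all genes 71, 76, 49 and 76 were then called lower in place of 707. The fold change of PFAS was then -1.02, -1.04, -0.92 and -0.87, and its adjusted p ran from 0.0711 to 0.0866. PPAT also lost its call without siMYC 2 (-0.60, adjusted p = 0.0871) and PAICS without siMYC 1 (-0.70, adjusted p = 0.0536). IMPDH2 gained a call without siMYC 2 (-0.72, adjusted p = 0.0353).

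Fold changes of all genes moved with the GC content of the transcript, which was lowest in PPAT (33.8%) and highest in PFAS (58.2%) of the 10. GC content is that of the longest annotated transcript of each gene, which may differ from the transcripts present in these cells. With genes sorted by GC content into 10 bins of equal size, the median log2 fold change in the knockdown rose from -0.378 in the lowest bin to 0.282 in the highest. PFAS and IMPDH2 (52.3% GC) sat in bins with medians of 0.222 and 0.172, far above their own values. With the GC content and length trend removed, PFAS gave -1.21 (adjusted p = 0.0114), IMPDH2 -0.76 (0.02), UMPS -0.56 (0.0288) and GART -0.49 (0.0173). PAICS then gave -0.50 (adjusted p = 0.0889) and PPAT -0.22 (adjusted p = 0.199), so the call of these 2 genes did not last.

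**Figure D2:**
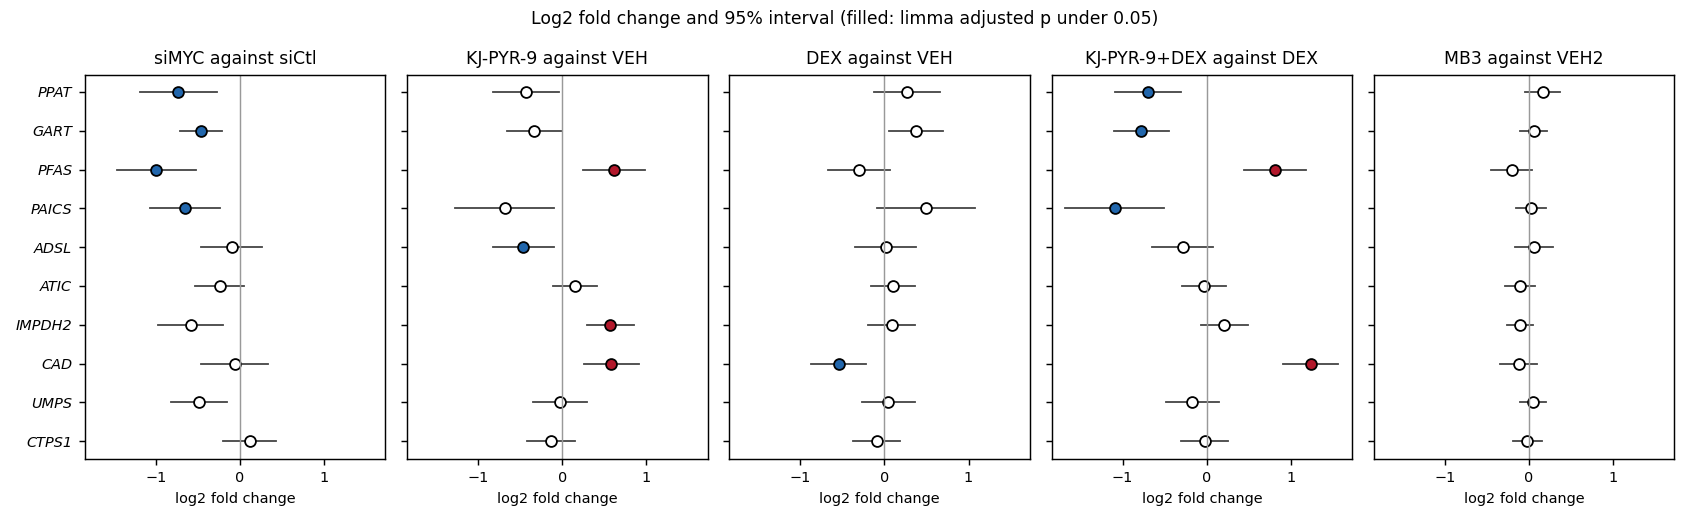
Log2 fold change (horizontal axis) of each gene in 5 comparisons, with the 95% interval from limma as a bar; filled points have an adjusted p under 0.05, blue for lower and red for higher. The intervals of PPAT, GART, PFAS, PAICS, IMPDH2 and UMPS lie below 0 in the knockdown, where the points of IMPDH2 and UMPS are not filled. All 10 intervals include 0 with MB-3.

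The next comparison asked what the MYC inhibitor KJ-PYR-9 did within 3 h. Of the 10 genes, PFAS, IMPDH2 and CAD rose and ADSL fell. Among the 13616 genes tested, 25.4% were called higher and 17.5% lower, so 3 of 10 higher and 1 of 10 lower are close to the shares of all genes. The members' median log2 fold change was -0.0803, beside 0.0623 over all tested genes.

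PFAS read 1797, 2622 and 2365 in VEH and 3413, 3523 and 3332 in KJ-PYR-9. The 3 treated libraries were close together and all above the vehicle, of which VEH 1 was the lowest. PFAS rose by 0.62 on the log2 scale (SE 0.17, adjusted p = 0.0146), and without VEH 1 the value was 0.46 with an adjusted p of 0.0629. IMPDH2 read 1702, 2232 and 1955 in VEH and 2796, 3021 and 2906 in KJ-PYR-9, again without overlap. It rose by 0.57 (SE 0.13, adjusted p = 0.00632), a call that held in each fit that left out 1 library.

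CAD read 1733, 1717 and 1847 in VEH and 2363, 2566 and 3044 in KJ-PYR-9. All treated libraries of CAD were above all vehicle libraries, with KJ-PYR-9 3 the highest. It rose by 0.58 (SE 0.15, adjusted p = 0.0111), and without KJ-PYR-9 3 the value was 0.48 with an adjusted p of 0.0531. ADSL read 196, 238 and 244 in VEH and 169, 174 and 148 in KJ-PYR-9, also without overlap. ADSL fell by 0.46 on the log2 scale (SE 0.16, adjusted p = 0.0416). That call was lost in 6 of the 12 fits without 1 library, with adjusted p of 0.0521 without DEX 2, 0.0651 without KJ-PYR-9 2, 0.0758 without KJ-PYR-9 1, 0.109 without VEH 3, 0.118 without VEH 2 and 0.141 without KJ-PYR-9 3. Among fits without a library of the compared groups, only that without VEH 1 kept the call. Leaving out a DEX or KJ-PYR-9+DEX library cannot change the fold change, only the spread.

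PPAT, PAICS and GART had lower values in every KJ-PYR-9 library than in any VEH library. None of these genes passed the main test, and the share of all genes without overlap was not counted. PPAT read 423, 454 and 341 in VEH and 319, 307 and 276 in KJ-PYR-9 (-0.42, SE 0.18, adjusted p = 0.0734). PAICS read 2158, 2484 and 1844 in VEH and 1399, 1583 and 1082 in KJ-PYR-9 (-0.68, SE 0.27, adjusted p = 0.0592). GART read 1598, 1746 and 1616 in VEH and 1289, 1381 and 1269 in KJ-PYR-9 (-0.33, SE 0.15, adjusted p = 0.0892). In PAICS the library numbered 3 was the lowest of both groups, and residuals of libraries sharing a number were correlated in this experiment. With the replicate number as a block, limma called 7 of the 10, 3 higher and 4 lower, while 58% of all genes were called in that fit. PPAT (adjusted p = 0.0137), PAICS (0.00149) and GART (0.0275) were the 3 genes added.

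ATIC, UMPS and CTPS1 did not pass the test with KJ-PYR-9. ATIC averaged 829 (SD 57.8, n = 3) against 744 (SD 48.9) in VEH (0.16, 95% interval -0.11 to 0.42, adjusted p = 0.304). UMPS averaged 458 (SD 26.8) against 467 (SD 29.2), a log2 fold change of -0.03 with an interval of -0.34 to 0.29. CTPS1 averaged 1810 (SD 92.7) against 1986 (SD 84.4), with -0.13 and an interval of -0.42 to 0.15. The groups of these 3 genes overlapped.

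The KJ-PYR-9 values of all genes moved with GC content. Over all tested genes the median log2 fold change rose from -0.748 in the lowest bin of GC content to 0.813 in the highest. The 3 genes that rose have a GC content of 58.2% (PFAS), 57.7% (CAD) and 52.3% (IMPDH2), and the 4 with the lowest values have 42.3% (PAICS), 45.3% (ADSL), 33.8% (PPAT) and 46.6% (GART). Once the GC content and length trend was removed, 1 of the 10 was called, beside 24.5% of all genes. That gene was IMPDH2 (0.41, adjusted p = 0.0248), while PFAS gave 0.13 (0.597), CAD 0.10 (0.467) and ADSL -0.30 (0.171). PPAT turned from -0.42 to 0.51 (adjusted p = 0.0743). Which source gave rise to the gradient was not tested.

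Scaling between libraries also mattered here. With TMM factors the calls of all genes changed from 3455 higher and 2380 lower to 2939 higher and 3057 lower, and PPAT (-0.51, adjusted p = 0.0362), PAICS (-0.77, 0.0364) and GART (-0.42, 0.0377) passed as well. With quantile scaling (2832 higher and 3120 lower over all genes) PFAS, CAD, IMPDH2 and ADSL lost their calls, with adjusted p of 0.244, 0.121, 0.159 and 0.0595. PAICS (-0.96, adjusted p = 0.0154), GART (-0.60, 0.0104) and CTPS1 (-0.45, 0.0273) were called lower instead.

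**Figure D3:**
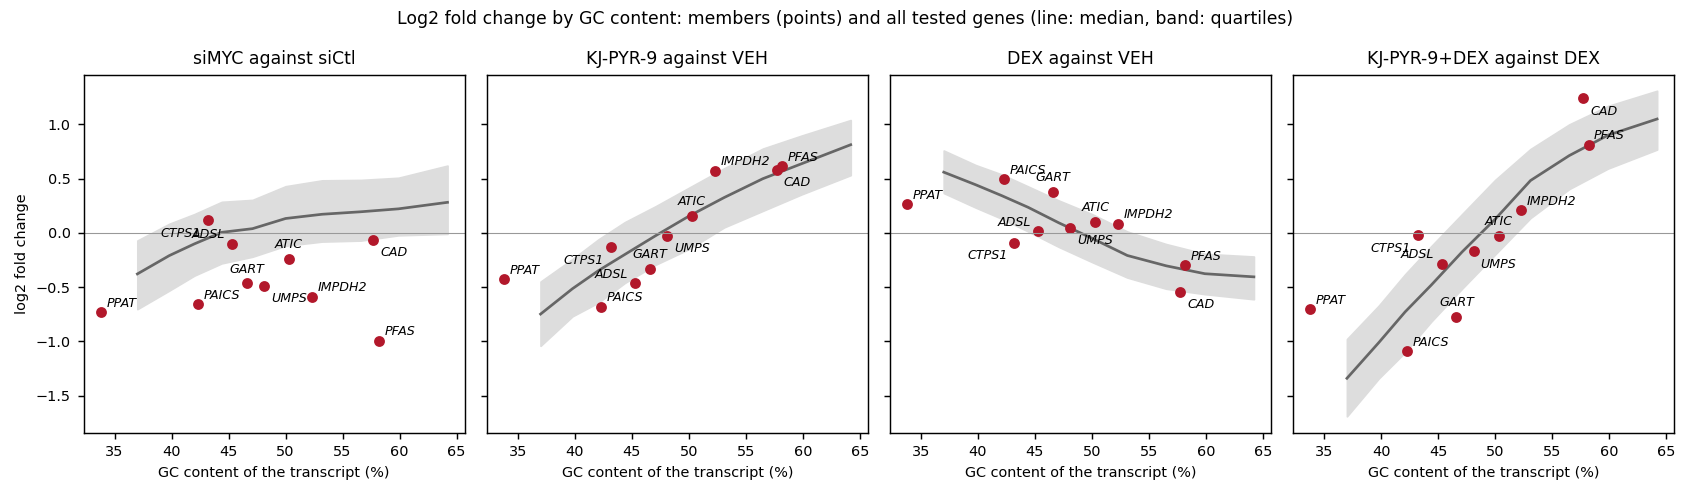
Log2 fold change (vertical axis) against the GC content of the transcript in percent (horizontal axis) in 4 comparisons; red points are the 10 genes, the line is the median and the band the quartiles of all tested genes in 10 bins of GC content. The band is drawn through the bin medians of GC content, so it starts to the right of PPAT and can differ from the quartiles of a gene's own bin. With KJ-PYR-9, 6 of the 10 lie within the quartiles of their own bin, PPAT lies above them, and PAICS, GART and ADSL lie below them. In the knockdown PFAS, IMPDH2, PPAT, PAICS, GART, UMPS and ATIC lie below the quartiles of their own bin, PFAS at -0.99 the farthest.

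The treatment labelled DEX was compared with VEH. CAD fell, and none of the other 9 genes passed the test, beside 8.02% of all tested genes called lower and 9.5% called higher. CAD read 1126, 1227 and 1281 in DEX and 1733, 1717 and 1847 in VEH, with no overlap and little spread within either group. It fell by 0.54 on the log2 scale (SE 0.15, adjusted p = 0.0315). The call was lost in 5 of the 12 fits that left out 1 library, with adjusted p of 0.0697 without VEH 1, 0.074 without VEH 2, 0.102 without VEH 3, 0.109 without DEX 1 and 0.076 without DEX 2. Among fits without a library of the compared groups, only that without DEX 3 kept the call (0.0327). Leaving out a KJ-PYR-9 or KJ-PYR-9+DEX library cannot change the fold change, only the spread. With the GC content and length trend removed, the value for CAD was -0.14 with an adjusted p of 0.377.

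PAICS and GART had higher means in DEX. PAICS read 3526, 3524 and 2224 in DEX, and DEX 3 lay below VEH 2 (0.49, SE 0.27, adjusted p = 0.191). GART read 2279, 2239 and 1934 in DEX and was above all VEH libraries (0.38, SE 0.15, adjusted p = 0.0935). With the replicate number as a block both passed, at adjusted p of 0.0128 for PAICS and 0.0241 for GART, so that 3 of the 10 were called, beside 43.5% of all genes. Against the GC gradient of this comparison, whose medians ran from 0.56 in the lowest bin to -0.405 in the highest, PAICS lay near the 0.343 of its bin and GART above the 0.0927 of its own. PPAT gave 0.26, PFAS -0.30, ATIC 0.10, IMPDH2 0.09, ADSL 0.02, UMPS 0.05 and CTPS1 -0.09, with adjusted p from 0.203 to 0.943.

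KJ-PYR-9 was also given together with DEX and compared with DEX alone. Here PPAT, PAICS and GART fell and PFAS and CAD rose, while 33.6% of all tested genes were called higher and 35.1% lower. The members' median log2 fold change was -0.0998, beside 0.000736 over all tested genes. This comparison shares no library with KJ-PYR-9 against VEH, but it shares DEX with the previous comparison.

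PPAT read 494, 583 and 394 in DEX and 263, 353 and 283 in KJ-PYR-9+DEX, without overlap (-0.70, SE 0.18, adjusted p = 0.00488). PAICS read 1627, 1827 and 959 in KJ-PYR-9+DEX, below all 3 DEX libraries, with the libraries numbered 3 again the lowest of each group. PAICS fell by 1.09 on the log2 scale (SE 0.27, adjusted p = 0.00405). GART read 1308, 1486 and 1010 in KJ-PYR-9+DEX, also without overlap, and fell by 0.78 (SE 0.15, adjusted p = 0.00102).

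CAD showed the widest separation. The KJ-PYR-9+DEX libraries read 2580, 2597 and 3480 while those of DEX read 1126 to 1281, and CAD rose by 1.24 (log2, SE 0.15, 95% interval 0.91 to 1.57, adjusted p = 0.000132). PFAS read 1611, 1925 and 1925 in DEX and 2648, 3436 and 3563 in KJ-PYR-9+DEX, and rose by 0.81 (SE 0.17, adjusted p = 0.00156). The 5 calls were kept in each fit that left out 1 library. Without DEX 1 and KJ-PYR-9+DEX 3, the libraries richest in unnamed reads, the values were 1.05 for CAD, 0.65 for PFAS, -0.65 for PPAT, -0.70 for PAICS and -0.58 for GART. Their adjusted p ran from 0.000998 to 0.043.

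IMPDH2, which rose with KJ-PYR-9 alone, averaged 2403 (SD 187, n = 3) in KJ-PYR-9+DEX and 2074 (SD 114) in DEX. Its lowest KJ-PYR-9+DEX library lay just below the highest DEX library (0.21, SE 0.13, adjusted p = 0.162). ADSL gave -0.28 (adjusted p = 0.143), UMPS -0.17 (0.305), ATIC -0.03 (0.838) and CTPS1 -0.02 (0.88).

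The GC gradient was steepest in this comparison, with medians of -1.34 in the lowest bin and 1.05 in the highest. PPAT at -0.70 lay above the -1.34 of its bin, and CAD at 1.24 above the 0.713 of its own. After removal of the GC content and length trend, limma called 4 of the 10, beside 32.3% of all genes. GART stayed lower (-0.68, adjusted p = 0.0037) and CAD stayed higher (0.32, adjusted p = 0.0211). PPAT turned from -0.70 to 0.89 (adjusted p = 0.0062) and CTPS1 from -0.02 to 0.43 (0.0275), and PFAS gave -0.10 (0.656) and PAICS -0.49 (0.0806). The direction for PPAT and PFAS therefore depended on this correction.

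Whether the effect of KJ-PYR-9 differed with and without DEX was tested as an interaction, the second effect minus the first. limma called 0 of the 10, with 7.15% of all tested genes called higher and 9.62% lower, and 1 gene had an unadjusted p under 0.05. That gene was CAD, with an interaction of 0.66 (SE 0.21, adjusted p = 0.0549). edgeR, with 17.7% of genes called, and DESeq2, with 20.9%, each called 1 of the 10, which was CAD (adjusted p of 0.0178 and 0.00421). With the replicate block limma called it too (adjusted p = 0.00849). CAD also gained the call without KJ-PYR-9 3 (0.76) and without KJ-PYR-9+DEX 1 (0.73), and over all fits without 1 library its adjusted p ran from 0.0471 to 0.137. With the GC content and length trend removed the interaction of CAD was 0.23 (adjusted p = 0.25), and IMPDH2 was called at -0.50 (adjusted p = 0.0478). For PAICS the interaction was -0.41 with a 95% interval of -1.24 to 0.42, and for GART -0.44 with an interval of -0.90 to 0.02.

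MB-3 at 100 µM for 3 h gave no call among the 10 genes. limma called 0, with 0 at an unadjusted p under 0.05, and edgeR and DESeq2 each called 0 as well. Over all genes limma called 0.0299% higher and 0.0299% lower, edgeR 0.159% and DESeq2 1.53%, so few genes of any kind passed. The log2 fold changes of the 10 ran from -0.206 (PFAS) to 0.162 (PPAT). PFAS read 2138, 2202 and 2099 in VEH2 and 1603, 1926 and 2085 in MB3, without overlap (95% interval -0.45 to 0.03). IMPDH2 read 2689, 2710 and 2714 in VEH2 and 2495, 2599 and 2451 in MB3, also without overlap (-0.11, interval -0.26 to 0.05). PPAT read 549, 603 and 669 in VEH2 and 688, 693 and 651 in MB3, with overlap. CAD averaged 1487 (SD 108, n = 3) in VEH2 and 1365 (SD 119) in MB3. The widest interval of the 10, that of PFAS, does not reach the fall of 0.99 that PFAS showed in the knockdown, though the 2 experiments were normalized separately and differ in agent and time.

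PFAS, IMPDH2, ATIC, CAD and CTPS1 gave values of opposite sign with the siRNA pool and with KJ-PYR-9. PFAS was -0.99 after 72 h of siMYC and 0.62 after 3 h of KJ-PYR-9, and IMPDH2 was -0.59, short of the threshold, and 0.57. ATIC gave -0.24 and 0.16, CAD -0.06 and 0.58, and CTPS1 0.12 and -0.13. Of the values of ATIC, CAD and CTPS1, only the 0.58 of CAD with KJ-PYR-9 was called. Both values of PFAS and the 0.57 of IMPDH2 with KJ-PYR-9 were called. PPAT, PAICS and GART were below 0 in both, at -0.73, -0.66 and -0.47 in the knockdown and -0.42, -0.68 and -0.33 with KJ-PYR-9. UMPS (-0.49 and -0.03) and ADSL (-0.10 and -0.46) were below 0 in both as well. With the GC content and length trend removed, PFAS gave -1.21 and 0.13 and IMPDH2 -0.76 and 0.41. ATIC then gave -0.40 and 0.04 and CAD -0.25 and 0.10. CTPS1 gave 0.29 and 0.16, so its opposite signs depended on this correction. PPAT then gave -0.22 and 0.51, so its shared direction depended on this correction. PAICS gave -0.50 and -0.29 and GART -0.49 and -0.26. Times, controls and tables differ between these experiments, and the difference between them was not tested.

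**Figure D4:**
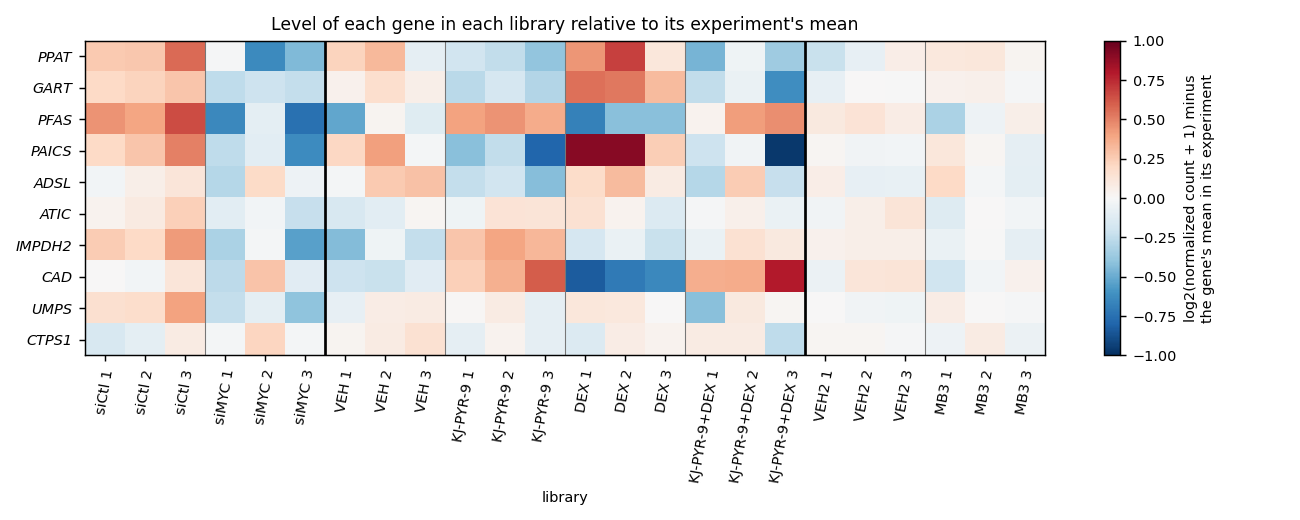
Level of each gene (rows) in each library (columns) as log2(normalized count + 1) minus that gene's mean in the same experiment; red is higher, blue lower, and black lines separate the experiments. CAD is lowest in the 3 DEX libraries, where the group means of PPAT, GART and PAICS are the highest of the inhibitor experiment, and the MB-3 experiment is pale throughout.

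Among themselves the 10 genes did not move as 1 block. Over all 24 libraries, after each gene was centred within its experiment, UMPS was most like the mean of the other 9 (Pearson r = 0.857), followed by ATIC (0.673) and IMPDH2 (0.54). CTPS1 stood at 0.0469 and CAD at -0.333. These libraries share groups, depth and the GC gradient, so the values describe this set alone. The 5 genes whose centred profile was most like the mean of all 10, out of 9858 compared over the 24 libraries, were GNL3L (0.953), SNHG16 (0.952), GEMIN5 (0.946), POLR1E (0.937) and FAM136A (0.93).

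The genes around these enzymes were read from lists of 56 genes for PRPP supply, other steps of synthesis, folate and serine supply, deoxynucleotide synthesis, salvage, breakdown and nucleotide kinases. In the knockdown 6 of 54 tested rose and 3 fell, close to the 11.4% and 4.78% of all genes. All 5 that rose beyond the kinases were of the breakdown list, 5 of 9 tested. They included SAMHD1, which hydrolyses deoxynucleotide triphosphates (2.54, SE 0.16, adjusted p = 0.00551), XDH, which makes uric acid (2.74, SE 0.38, 0.0117), and UPP1, a uridine phosphorylase (0.97, SE 0.17, 0.0191). Of 11 salvage genes 2 fell, UCK2, a uridine and cytidine kinase (-0.70, adjusted p = 0.0255), and APRT, which reclaims adenine (-0.53, 0.0355). Among the kinases GUK1 rose (0.50, adjusted p = 0.0351) and NME1 fell (-0.65, 0.0354). No gene of PRPP supply (4 tested), folate and serine supply (10 tested) or deoxynucleotide synthesis (7 tested) passed the test there. IMPDH1, the relative of IMPDH2, gave -0.30 (adjusted p = 0.147), and CTPS2, the relative of CTPS1, 0.10 (0.54).

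With KJ-PYR-9, 14 of 52 tested rose and 7 fell, beside the 25.4% and 17.5% of all genes. IMPDH1 rose by 0.998 (SE 0.25, adjusted p = 0.0097), as IMPDH2 did, from 524 (SD 122, n = 3) to 1029 (SD 74.3). CTPS2 gave -0.16 (adjusted p = 0.516). In the adenine branch ADSS1 rose (1.03, adjusted p = 0.0113) and ADSS2 fell (-0.69, 0.0214). Of the folate and serine genes SHMT2, the mitochondrial serine hydroxymethyltransferase, rose by 0.86 (0.00236), MTHFD1L by 0.52 (0.0131) and PHGDH, the first enzyme of serine synthesis, by 0.98 (0.0219), and 1 of the 10 fell. TYMS, thymidylate synthase, rose by 0.72 (0.00738), and RRM2B, a ribonucleotide reductase subunit, fell by 1.15 (0.00773). Of 11 salvage genes 4 rose and 1 fell, with UCKL1 at 1.48 (0.00139), PNP at 0.94 (0.00198) and TK1 at 0.95 (0.00255). With the GC content and length trend removed, IMPDH1 gave 0.32 (adjusted p = 0.197) and ADSS2 -0.28 (0.154). SHMT2 (0.42, 0.00685), MTHFD1L (0.34, 0.0352), PHGDH (0.76, 0.0374), TYMS (0.69, 0.0101), UCKL1 (0.86, 0.00115) and PNP (1.13, 0.00142) kept their calls.

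DNA replication genes were read beside them. Of 9 replication and proliferation genes, 6 rose with KJ-PYR-9 and none fell, beside 25.4% and 17.5% of all genes, led by MCM5 (1.26, adjusted p = 0.00193), MCM2 (1.29, 0.00207) and MCM7 (0.68, 0.00283), subunits of the replicative helicase. MCM7 gave 0.21 with an adjusted p of 0.234 once the GC content and length trend was removed. With KJ-PYR-9+DEX against DEX, 5 of the 9 rose and 2 fell, beside 33.6% and 35.1% of all genes. In the knockdown 1 of the 9 passed, MKI67, a marker of cycling cells, which fell by 1.06 (adjusted p = 0.0324). The part of cell cycle position in the values of the 10 enzymes was not tested.

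With DEX, 8 of the 52 rose and 1 fell, beside 9.5% and 8.02% of all genes. Among them were NT5E, a surface nucleotidase (0.64, adjusted p = 0.0123), MTHFD2 of the mitochondrial folate route (0.63, 0.0185), ADK, which reclaims adenosine (0.73, 0.0254), and UCK1, which fell (-0.76, 0.0302). These values are without removal of the GC content and length trend. Medians of all genes ran from 0.56 in the lowest bin of GC content to -0.405 in the highest. IMPDH1 gave -0.44 (0.206) and CTPS2 0.54 (0.0706). With the replicate block IMPDH1 (0.0319) and CTPS2 (0.0207) passed. When KJ-PYR-9 was added to DEX, 14 of the 52 rose and 21 fell, near the 33.6% and 35.1% of all genes. IMPDH1 rose by 1.46 (adjusted p = 0.000538), CTPS2 fell by 0.69 (0.00804), ADSS2 by 1.10 (0.000946) and GMPS, which makes guanosine monophosphate, by 0.93 (0.00282). All 4 called genes of deoxynucleotide synthesis fell, with RRM2B at -1.92 (0.000245) and DUT at -0.85 (0.013). Once the GC content and length trend was removed, RRM2B stayed called (-0.60, 0.00303), and IMPDH1 (0.43, 0.0784), CTPS2 (-0.38, 0.108), ADSS2 (-0.34, 0.0727), GMPS (-0.18, 0.327) and DUT (-0.35, 0.214) did not. In the interaction 7 of the 52 were called lower and 0 higher, beside 9.62% and 7.15% of all genes, with NT5E at -1.03 (0.00487) and MTHFD2 at -1.01 (0.00841). Both interaction values are also without removal of that trend. Interaction medians of all genes ran from -0.586 in the lowest bin of GC content to 0.208 in the highest. With MB-3 limma called 0 of 49 tested, and IMPDH1 gave -0.32 (0.371) and CTPS2 -0.02 (0.974).

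**Figure D5:**
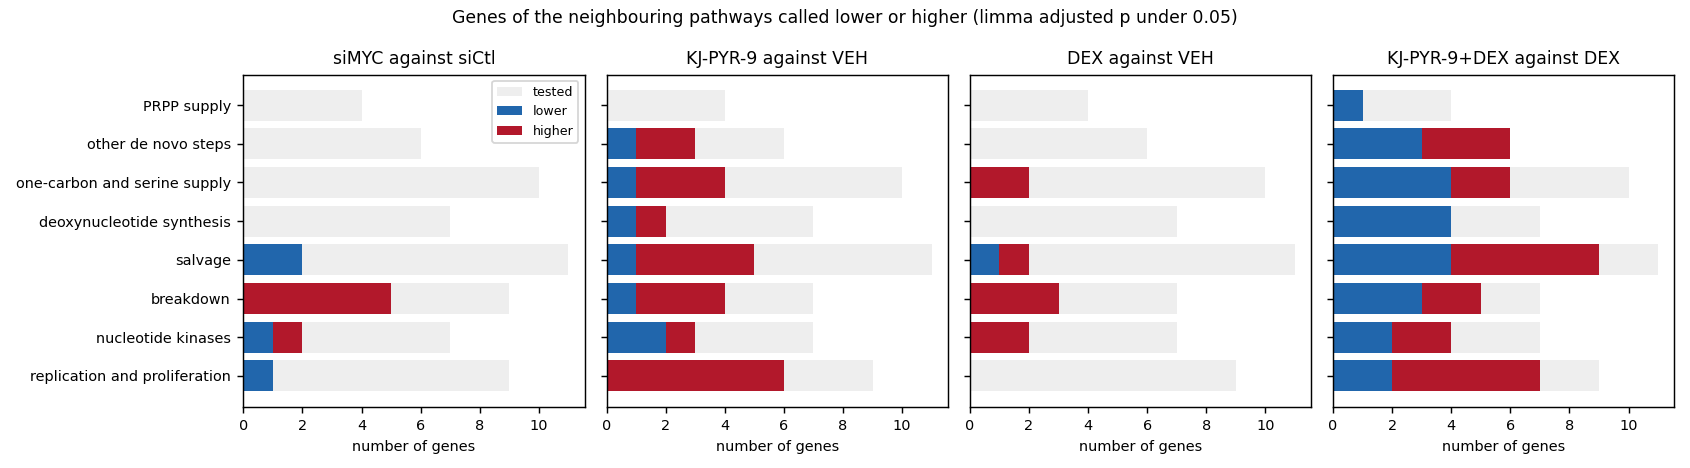
Number of genes (horizontal axis) of 8 neighbouring gene lists that were tested (grey), called lower (blue) or called higher (red) in 4 comparisons, at a limma adjusted p under 0.05. Breakdown genes are the list with most calls in the knockdown, 5 of 9, and all 4 deoxynucleotide synthesis genes called with KJ-PYR-9+DEX against DEX fell.

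Strandedness of the libraries is not given in the sources used here, so reads cannot be split between genes that overlap on opposite strands. In the GENCODE annotation GART overlaps the start of SON, PFAS the start of CTC1, ADSL overlaps SGSM3, and PPAT, IMPDH2 and UMPS each overlap a non-coding gene on the other strand. A PAICS start listed by RefSeq, at 56410507, also lies inside PPAT on the other strand. How far this touches the values of these genes was not tested.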

How the data were processed

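The signal the authors deposited for each of the 24 libraries held normalized read counts, each gene named by its symbol, with bcl2fastq, SAMtools, featureCounts, DESeq2 and GRCh38 (hg38) named per the submitters' processing notes. The aligner, the annotation, tool versions and strandedness are not given in the sources used here. Per the labels' protocols ribosomal RNA was depleted and paired ends were read on a NovaSeq sequencer. Every value was a whole multiple of 1 step per library within a tolerance of 0.0001, which gave the reads behind it. In the inhibitor files 6462 features had no gene symbol and stayed out of the tests. They held 1.618% to 26.04% of reads. Values of repeated symbols were summed. The MB-3 table held no gene with a mean under 83.9.

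Genes with a mean of at least 10 entered a two-sided limma test (limma 3.58.1, R 4.3.3) of log2(value + 1). p-values were adjusted by Benjamini-Hochberg across all 14788, 13616 or 10048 genes, and 0.05 was the threshold. Because of the pseudocount, fold changes are on the log2(value + 1) scale, which understates those of low genes. The 12 inhibitor libraries shared 1 fit. edgeR 4.0.16 and DESeq2 1.42.0 on the recovered reads were alternatives, as were TMM and quantile scaling, trended and robust variance, pseudocounts of 0.5 and 5, a mean of at least 50, no filter, removal of trends with GC content and length by splines with 5 degrees of freedom in each library, a replicate block, and each library left out. Leaving out DEX 1 with KJ-PYR-9+DEX 3 was chosen after seeing the data. Residuals of libraries sharing a number correlated at 0.13 to 0.524 over 18 pairs of the inhibitor experiment and at 0.208 to 0.389 over 3 pairs with MB-3. All were above 0.1, the minimum set for reading the numbers as pairs. These pairs are few and not independent, and no label gives a shared day or batch, so pairing is not established. The main fits used no block.

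Named were all 10 genes, IMPDH1, CTPS2, MYC, KAT2A, the 5 most similar profiles, and at most 3 called genes per list and comparison by adjusted p, of which some are not reported here. The genes and lists were chosen with earlier results of these data known. The limma code was tested on simulated data. GC content and exon length came from GENCODE and promoter windows from RefSeq (GRCh38.p14).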

Additional observations from a re-analysis of the deposited data

How the results depend on the processing

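Of 1300 values of the 10 genes under alternatives, 1158 kept direction and call, 49 lost a call, 54 gained one and 39 changed sign, 3 of these with a call on either side. Some of the 1300 had no room to change. The filters on the mean removed no gene with MB-3, and leaving out a library of a group not compared kept the fold change. The 1158 is therefore no measure of how firm the calls are. In the knockdown the number of genes called was 2 without a filter on low values and 0 to 4 without 1 library. The knockdown numbers did not pair (3 pairs, r = -0.346 to -0.02), and with the replicate block 0 were called, with 6 at an unadjusted p under 0.05. For KJ-PYR-9 against VEH 7 were called by edgeR (over all genes 3406 higher and 3655 lower of 13616), DESeq2 (3678 and 3546) and TMM scaling (2939 and 3057), 1 after the GC content and length trend was removed, and 2 to 6 without 1 library. With DEX 2 were called by DESeq2 (2047 higher and 1690 lower over all genes), 0 after GC removal (751 and 528) and 0 to 2 without 1 library. The interaction gave 1 by edgeR, DESeq2, TMM, quantile scaling, trended variance, a mean of at least 50 and GC removal, and 0 or 1 without 1 library. That gene was CAD by edgeR, DESeq2, TMM and quantile scaling. After GC removal it was IMPDH2, and CAD was not called. The replicate block, where residuals of libraries sharing a number correlated above 0.1, gave 7 with KJ-PYR-9, 3 with DEX and 1 in the interaction. There it changed no other call of the 10 genes.

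Signs changed after GC removal for CTPS1 (0.16) and PPAT (0.51) with KJ-PYR-9, for ADSL (-0.11), PFAS (0.12) and PPAT (-0.37) with DEX, for CTPS1 (0.43), IMPDH2 (-0.10), PFAS (-0.10) and PPAT (0.89) with KJ-PYR-9+DEX, for PFAS (-0.23) and PPAT (0.38) in the interaction, and for ADSL (-0.0087) and PAICS (-0.055) with MB-3. Quantile scaling turned ADSL (-0.073), IMPDH2 (-0.034) and UMPS (-0.031) with DEX, ATIC with KJ-PYR-9+DEX (0.0101), and ATIC (0.0066) and UMPS (0.021) in the interaction, whose median over all genes it moved from -0.109 to 0.0348. ADSL with DEX was -0.0075 by edgeR and -0.012 by TMM. Without DEX 1 and KJ-PYR-9+DEX 3, ATIC was 0.0651 and CTPS1 0.0246 with KJ-PYR-9+DEX. The cause was not tested.

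Without 1 library, values ran across 0 in the knockdown for ADSL (-0.218 to 0.0194) and CAD (-0.22 to 0.0528), with KJ-PYR-9 for UMPS (-0.0793 to 0.0182), with DEX for ADSL (-0.0826 to 0.0755), IMPDH2 (-0.0123 to 0.183) and UMPS (-0.00758 to 0.0806), with KJ-PYR-9+DEX for ATIC (-0.105 to 0.0372) and CTPS1 (-0.0878 to 0.0898), in the interaction for UMPS (-0.244 to 0.0139), and with MB-3 for ADSL (-0.0282 to 0.12), CTPS1 (-0.0647 to 0.00835) and PAICS (-0.0218 to 0.0805). In the knockdown TMM changed the calls over all genes from 1679 higher and 707 lower to 1374 higher and 944 lower. With 3 libraries a group, values near 0 carry no direction, and depth limits ADSL most, at 74 reads in its lowest library.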
